A study of Mus musculus with 36 samples.

Results

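The genes described here are 34 genes of sterol and fatty acid synthesis and of cholesterol efflux, read from the mRNA sequencing table of the mouse pre-B cell line B3. They were chosen by a list of gene symbols, and all 34 were present among the 12762 genes of the table. The list was drawn up after earlier results of these data were known, because Sc4mol and Abcg1 stood out in control cells at 24 h against control cells at 0 h. In that contrast Sc4mol was 0.81 higher and Abcg1 0.86 lower on the log2 scale, and the members' values in it are given below as a description with no test.

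B3 is a dividing mouse line used as a stand-in for early (pre-BI) B cell progenitors. Ikaros, a zinc finger transcription factor, can be sent to the nucleus of these cells to start their step to pre-BII, in which division stops. The Ikaros line carried a mouse stem cell virus (MSCV) vector encoding HA-Ikaros-ERt2-IRES-GFP, in which wild type Ikaros is fused to the hormone-binding domain of the estrogen receptor and enters the nucleus upon 4-hydroxy-tamoxifen (4-OHT). The control line carried the same kind of vector with ERt2-IRES-GFP and no Ikaros, so GFP and the ERt2 domain were shared by both lines. Each line was sampled at 0, 2, 6, 12, 18 and 24 h with 3 libraries a group, 36 libraries in all. The transduced cells were pools sorted for GFP and not single clones, and every culture was grown in IMDM with 10% FCS. Per the labels even the 0 h libraries carry a dose of 0.5 uM 4-OHT, but per the methods no drug was given at 0 h and those cells were obtained on separate occasions. All later time points of a culture batch were harvested together.

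Cholesterol is built from acetyl-CoA through mevalonate to squalene, which is closed into lanosterol and then trimmed to cholesterol. Transcription of these enzymes is driven by the sterol regulatory element-binding proteins (SREBPs), which SCAP escorts out of the endoplasmic reticulum when sterols are low and which the INSIG proteins hold back when sterols are high. Fatty acid synthesis is a further SREBP target, while the liver X receptors (LXRs) switch on cholesterol export when oxysterols accumulate. Dividing lymphocytes need both lipids for new membrane.

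The stretch before a gene's start where these factors are known to act is shown for 3 members, as the RefSeq promoter windows on GRCm38.p6 give it, in 250 bases ending at the last base before the start. Hmgcs1 (chr13:119690101-119690350, forward strand) is shown because it was the 1 member whose window held the sterol regulatory motif searched, TCACNCCAC. Mvd (chr8:122443423-122443672, reverse strand) and Ebp (chrX:8193513-8193762, reverse strand) were chosen after their values were seen, as sterol enzymes that stood higher and lower than control at 24 h. Capitals mark the sterol motif and the CCAAT box on either strand, where ATTGG is a CCAAT on the other strand.
Hmgcs1: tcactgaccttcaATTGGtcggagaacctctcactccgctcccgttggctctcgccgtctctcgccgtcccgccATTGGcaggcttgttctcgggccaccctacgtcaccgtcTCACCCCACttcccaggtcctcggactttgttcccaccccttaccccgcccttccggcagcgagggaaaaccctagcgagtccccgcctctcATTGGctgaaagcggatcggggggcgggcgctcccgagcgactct
Mvd: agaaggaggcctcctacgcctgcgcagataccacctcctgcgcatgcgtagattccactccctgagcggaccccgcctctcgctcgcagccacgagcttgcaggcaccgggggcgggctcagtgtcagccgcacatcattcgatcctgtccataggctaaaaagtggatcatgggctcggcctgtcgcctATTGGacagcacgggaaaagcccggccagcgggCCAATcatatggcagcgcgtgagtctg
Ebp: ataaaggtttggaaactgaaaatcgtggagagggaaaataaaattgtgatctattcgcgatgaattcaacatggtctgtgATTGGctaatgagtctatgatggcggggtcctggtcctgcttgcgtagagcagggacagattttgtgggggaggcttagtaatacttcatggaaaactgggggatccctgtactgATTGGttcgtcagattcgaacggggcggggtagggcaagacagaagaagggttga

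In Hmgcs1 the sterol motif TCACCCCAC began at position -137 from the start and overlapped none of the CCAAT boxes. Windows running from 250 bases before to 50 bases after the start were given for 27 of the 34 members, with Sc4mol found under its current name Msmo1, and for 27025 genes in all. The CCAAT box was present in 21 of the 27 members (77.8%), among them 14 of the 15 sterol synthesis enzymes with a window (93.3%), beside 41.1% of all genes. The sterol motif was found in 1 of the 27 (3.70%) beside 1.44% of all genes, and the E-box CACGTG in 6 of the 27 (22.2%) beside 8.09%. The Ikaros core motif TGGGAA was found in 9 of the 27 members (33.3%) beside 28.3% of all genes, and in Hmgcs1 a copy on the other strand began at position -128, right after the sterol motif. Each motif was searched on both strands, and these shares were not tested. Mvd and Ebp, which differed from control in opposite directions, each held 2 CCAAT boxes in the stretches above.

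The values are log2 expression values offset by 1 common constant, so a level has no absolute unit and only differences between libraries are read below. Library medians lay between 11.70 and 11.73, no pair of libraries shared more than 0.384% of their values, and depth is unknown because no counts were used. The transgene was visible in Ikzf1, which encodes Ikaros, with 13.95 to 14.85 in the 18 control libraries and 19.63 to 20.93 in the 18 Ikaros libraries, 0 h included. All 10 pre-B markers looked for were in the table. Their mean level was 15.00 to 15.26 in control and 14.67 to 14.82 in Ikaros libraries at 0 h. At 6 h it was 15.05 to 15.31 against 14.34 to 14.50, and at 24 h 14.91 to 15.02 against 15.32 to 15.62. In Ikaros cells at 24 h 7 of the 10 were higher and 2 lower, beside 31.0% and 31.9% of all genes, with differences from -3.96 to 4.14. Of the markers of other lineages, 1 of 6 T cell, 2 of 6 myeloid and 4 of 6 erythroid genes were present. At 24 h the mean level of the 2 myeloid genes was 6.14 to 6.79 in control and 6.62 to 7.25 in Ikaros libraries, with Itgam higher by 4.24 and Lyz2 lower by 2.94. The erythroid genes averaged 7.85 to 8.49 in control and 8.68 to 9.02 in Ikaros libraries at 24 h. They lay the other way round at 0 h, with 8.09 to 8.51 in control and 6.74 to 7.37 in Ikaros libraries, and were lower in Ikaros libraries at 2 h and 6 h as well. The myeloid genes were at 5.01 to 6.01 in control and 6.33 to 7.08 in Ikaros libraries at 0 h. The part of other cell types in the results below was not tested, and in bulk RNA fewer cells of a type and less RNA per cell cannot be told apart.

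Ikaros cells were compared with control cells at each time to see where the pathway genes differed between the lines. In the comparison at 0 h, 2 members were higher and 2 lower in Ikaros cells, where 4.61% of all genes were higher and 3.72% lower (limma, adjusted p under 0.05 over all genes). At 2 h 12 members were higher and 2 lower, beside 9.18% and 9.88% of all genes. By 6 h 21 were higher and 5 lower, beside 18.1% and 19.2%. The 12 h count was smaller, with 11 higher and 7 lower at 12 h beside 23.0% and 22.8% of all genes. The count returned to 18 higher and 5 lower at 18 h (29.0% and 29.2% of all genes) and at 24 h (31.0% and 31.9%). The lower count at 0 h includes Abcg1, and the higher count at 24 h includes Abcg1 and Sc4mol. Both were picked on control libraries of these times, so nothing is read from their part of the counts.

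Sterol synthesis enzymes, that is, the mevalonate arm and the steps from squalene to cholesterol, make up 18 of the 34 members. They were 9 of the 12 members that were higher at 2 h and 12 of the 21 at 6 h. Of these 18 enzymes, 1 was higher and 0 lower at 0 h with a median difference of 0.15. The differences of 14 of the 18 were above 0 at 0 h, that of Sc4mol, picked on control libraries of this time, among them. At 2 h 9 were higher and 0 lower with a median of 0.46, and 12 were higher and 1 lower at 6 h with a median of 0.60. At 12 h 6 were higher and 3 lower with a median of 0.25. At 18 h 9 were higher and 1 lower with a median of 0.47, and at 24 h 8 were higher and 1 lower with a median of 0.35. Of all genes 4.61% were higher and 3.72% lower at 0 h, 9.18% and 9.88% at 2 h, and 18.1% and 19.2% at 6 h. The shares were 23.0% and 22.8% at 12 h, 29.0% and 29.2% at 18 h and 31.0% and 31.9% at 24 h. The median over all genes lay between -0.03 and -0.0025 at each time. The early calls depended on which replicates were left out. Without the second replicates 5 of the 34 members passed at 2 h in place of 14 and 15 at 6 h in place of 26. The share of all genes that passed fell from 19.1% to 6.30% at 2 h and from 37.3% to 21.2% at 6 h. The 5 that passed at 2 h were Hmgcs1, Fdft1, Stard4, Elovl6 and Abca1. Without the first replicates 8 passed at 2 h, beside 7.54% of all genes, with Acat2, Pmvk, Lss, Nsdhl, Insig2 and Stard4 lost. Without the third replicates, 16 members passed at 2 h and 29 at 6 h, and 21.3% and 39.0% of all genes. The 0 h count was 4 and rose to 8 in the fit with culture batch as a replicate block kept separate for 0 h. In that fit the share of all genes called at 0 h rose from 8.33% to 11.7%.

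**Figure D1:**
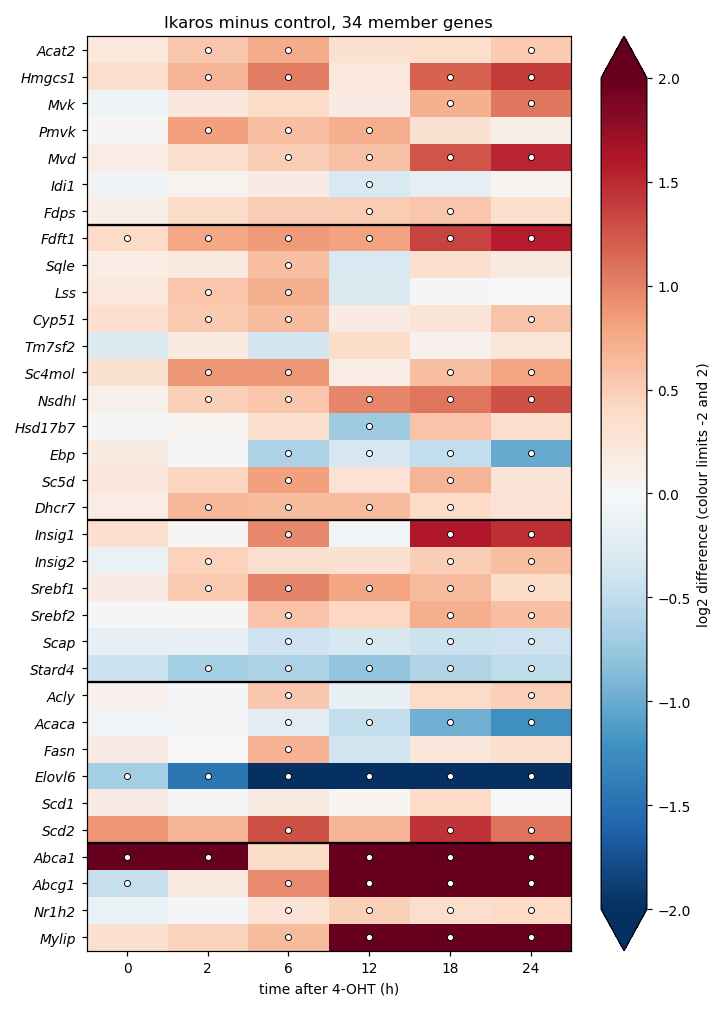
Log2 difference of Ikaros minus control for the 34 members (rows, by role) at the 6 times (columns), coloured from -2 to 2, with a white dot where limma's adjusted p was under 0.05. Sterol enzymes lie mostly above 0 at every time, with 14 of 18 at 0 h and 13 of 18 at 12 h. Elovl6 is lower at every time, and Abcg1 and Mylip are warm from 6 h on. The dots of Abcg1 at 0 h and 24 h and of Sc4mol at 24 h are not read as tests.

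In the mevalonate arm, which turns acetyl-CoA into farnesyl diphosphate, 4 of 7 enzymes were higher in Ikaros cells at 24 h and none was lower. Of all genes 31.0% were higher and 31.9% lower. The median difference of the arm was 0.52. The largest difference was in Mvd, mevalonate diphosphate decarboxylase. Its control libraries stood at 12.82, 13.11 and 13.21 at 2 h and its Ikaros libraries at 13.20, 13.50 and 13.40. By 24 h the control libraries were at 13.32, 13.37 and 13.68 and the Ikaros libraries at 15.10, 14.68 and 15.14. The groups touched at 2 h and were clearly apart at 24 h, where Mvd was 1.52 higher (SE 0.15, adjusted p = 2.5e-09, limma), or 2.86-fold. The 2 h difference of 0.32 did not pass, but did in the fit with culture batch as a block kept separate for 0 h.

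Hmgcs1, the HMG-CoA synthase whose promoter is shown above, was already apart at 2 h. The control libraries were at 14.41, 14.55 and 14.22 and the Ikaros libraries at 15.07, 15.28 and 14.89, a difference of 0.69 (SE 0.12, adjusted p = 0.000196, limma). Later, at 24 h, they were at 14.53, 14.68 and 14.85 against 16.06, 15.91 and 16.29, a difference of 1.40 (SE 0.12, adjusted p = 1.81e-10). In between, the difference was 1.05 at 6 h and fell to 0.21 at 12 h, which did not pass. Mvk, mevalonate kinase, moved late: its libraries overlapped at 2 h, with 12.19, 12.23 and 12.52 in control and 12.30, 12.52 and 12.79 in Ikaros cells. At 24 h they did not overlap, with 12.41, 12.27 and 12.66 against 13.56, 13.40 and 13.53, and the difference was 1.05 (SE 0.16, adjusted p = 2.01e-06).

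The other mevalonate enzymes differed less. Acat2, the cytosolic acetoacetyl-CoA thiolase, was higher by 0.55 at 2 h, by 0.74 at 6 h and by 0.52 (SE 0.18) at 24 h, but its 24 h call was lost without the first or without the second replicates. Pmvk, phosphomevalonate kinase, stood higher early, with 0.81 at 2 h, 0.61 at 6 h and 0.73 at 12 h, all of which passed, and 0.12 at 24 h, which did not. Fdps, farnesyl diphosphate synthase, was higher at 12 h (0.51) and 18 h (0.55), and its differences of 0.37 at 2 h and 0.34 at 24 h did not pass but did in the fit with culture batch as a block kept separate for 0 h. Idi1, the isopentenyl diphosphate isomerase, was lower by 0.30 at 12 h and differed by 0.05 at 24 h, which did not pass.

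From squalene to cholesterol, 4 of 11 enzymes were higher and 1 was lower at 24 h, beside 31.0% and 31.9% of all genes. The share that was higher is thus close to that of all genes, and Sc4mol, which is given without a test at 24 h, is counted in it. The median difference was 0.28. Fdft1, squalene synthase and the first enzyme committed to sterols, was higher in Ikaros cells at every time. Before induction its control libraries were at 12.36, 12.11 and 12.08 and its Ikaros libraries at 12.55, 12.67 and 12.46. At 2 h they were at 12.30, 12.54 and 12.42 against 13.29, 13.26 and 13.02. After 24 h they were at 12.79, 12.92 and 12.97 against 14.55, 14.26 and 14.58. No control library reached an Ikaros library at any of these times, and the difference grew from 0.38 at 0 h (adjusted p = 0.0187, limma) to 0.77 at 2 h (adjusted p = 3.75e-06) and 1.57 at 24 h (SE 0.10, adjusted p = 4.94e-13), or 2.98-fold.

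Nsdhl, a sterol dehydrogenase that works with Sc4mol in removing methyl groups, stood at 12.61, 12.86 and 13.24 in control and 13.13, 13.48 and 13.55 in Ikaros libraries at 2 h. At 24 h control was at 13.11, 13.20 and 13.50 and Ikaros at 14.49, 14.55 and 14.57. The groups overlapped at 2 h (0.48, adjusted p = 0.0339, limma) and not at 24 h, where Nsdhl was 1.27 higher (SE 0.16, adjusted p = 1.06e-07). In Sc4mol, the methyl sterol oxidase, the difference was early, and control was at 13.24, 13.09 and 13.25 and Ikaros at 13.94, 14.13 and 14.12 at 2 h. At 24 h the values were 13.22, 13.55 and 13.58 against 14.06, 14.25 and 14.40. The groups did not overlap at either time, and the differences were 0.87 at 2 h (SE 0.16, adjusted p = 0.000212) and 0.78 at 24 h (SE 0.16), the latter with no test because Sc4mol was picked on the control libraries of 0 h and 24 h. At 12 h the Sc4mol difference was 0.15 and did not pass.

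Ebp, the isomerase that shifts the sterol double bond, went the other way. Its libraries overlapped at 2 h, with 13.23, 13.41 and 13.54 in control and 13.25, 13.48 and 13.30 in Ikaros cells. At 24 h control was at 13.58, 13.76 and 13.73 and Ikaros at 12.79, 12.77 and 12.50. All Ikaros libraries were below all control libraries, a difference of -1.002 (SE 0.09, adjusted p = 5.25e-10, limma), and Ebp was also lower at 6, 12 and 18 h. The lanosterol demethylase Cyp51 was higher by 0.52 at 2 h, 0.64 at 6 h and 0.57 at 24 h.

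Several late-pathway enzymes were higher at 2 h or 6 h and did not pass at 24 h. Lss, lanosterol synthase, was higher by 0.56 at 2 h and 0.70 at 6 h and differed by -0.0021 at 24 h. Dhcr7, the last reductase of the pathway, was higher from 2 h (0.67) through 6 h (0.63) and 12 h (0.63) to 18 h (0.39), and its 24 h value of 0.28 did not pass but did with culture batch as a block kept separate for 0 h and without the third replicates. Sqle, squalene epoxidase, was higher by 0.60 at 6 h and stood at 0.18 at 24 h. Sc5d, a sterol desaturase, was higher at 6 h (0.81) and 18 h (0.68) and stood at 0.26 at 24 h, and its 2 h value of 0.43 passed with culture batch as a block and without the third replicates, the latter also at 24 h (0.34). Hsd17b7, a keto-reductase, was lower by 0.71 at 12 h and stood at 0.35 at 24 h. Tm7sf2, a sterol reductase, passed at no time and stood at 0.24 at 24 h, where it passed without the third replicates (0.51).

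**Figure D2:**
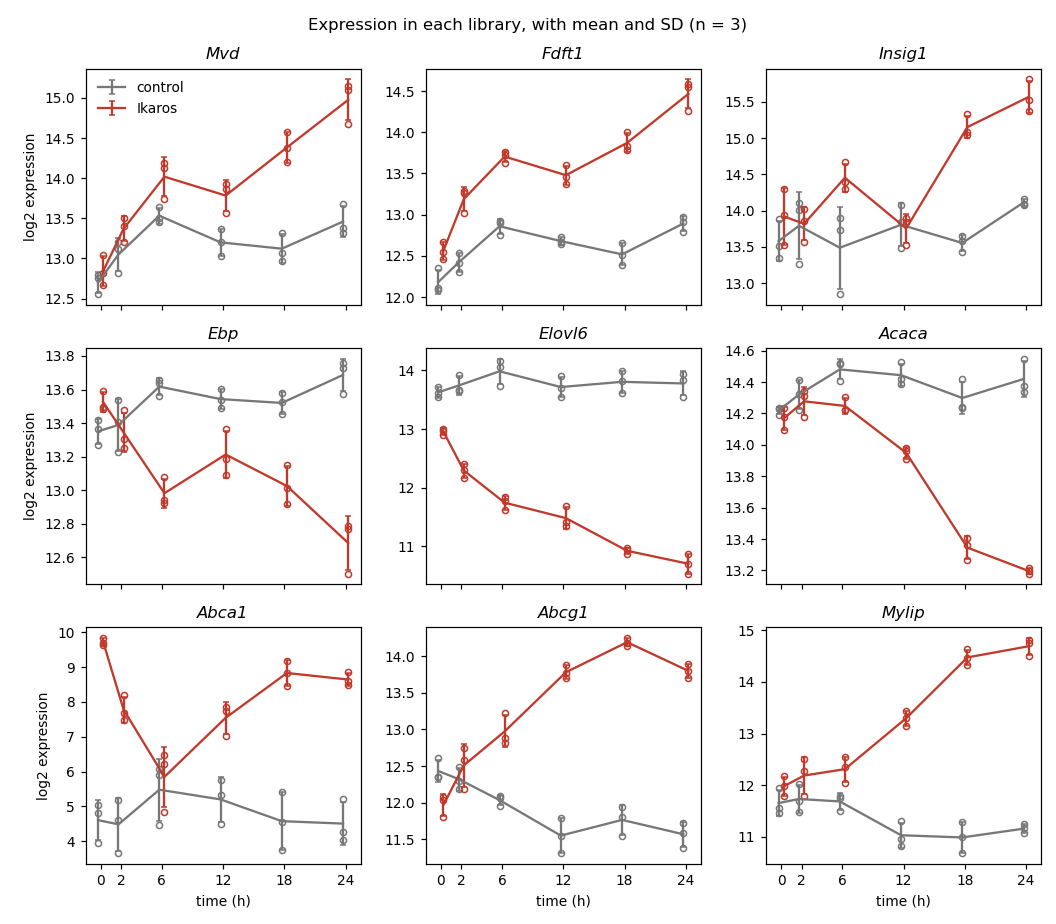
Log2 expression value of 9 members in each library (points) by time in hours, control and Ikaros lines, with the mean and SD of the 3 libraries. Mvd and Fdft1 separate from control by 24 h, Ebp, Acaca and Elovl6 stand lower, and Abca1 in Ikaros cells is high at 0 h, overlaps control at 6 h and is high again at 24 h.

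Of the 6 genes that control SREBPs or carry sterols, 4 were higher and 2 lower in Ikaros cells at 24 h, beside 31.0% and 31.9% of all genes. Their median was 0.48. Insig1, which retains SCAP and is itself an SREBP target, alternated. Its libraries overlapped at 2 h, with 14.01, 14.11 and 13.26 in control and 13.86, 14.02 and 13.57 in Ikaros cells. At 6 h the Ikaros libraries stood at 14.40, 14.67 and 14.30, above the control libraries at 13.73, 13.90 and 12.84. At 12 h they overlapped again, with 13.85, 14.08 and 13.49 in control and 13.90, 13.84 and 13.52 in Ikaros cells. The Ikaros libraries were apart from control once more at 24 h, at 15.81, 15.38 and 15.52 against 14.17, 14.09 and 14.08. The Insig1 difference thus went from 0.97 at 6 h to -0.05 at 12 h, then to 1.60 at 18 h and 1.46 (SE 0.24) at 24 h, of which only the 12 h value did not pass (24 h adjusted p = 7e-06, limma).

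Insig2, the second retention protein, was higher by smaller steps. Control libraries were at 10.15, 10.01 and 10.41 and Ikaros libraries at 10.62, 10.85 and 10.48 at 2 h. After 24 h they were at 10.21, 10.44 and 10.08 against 10.89, 10.70 and 10.93. The groups did not overlap at either time, with differences of 0.46 at 2 h (adjusted p = 0.0192, limma) and 0.60 at 24 h (SE 0.14, adjusted p = 0.000507).

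Both SREBP genes were higher at 24 h. Srebf1, whose products lean towards fatty acid genes, stood at 14.58, 14.56 and 14.50 in control and 14.92, 15.09 and 15.22 in Ikaros libraries at 2 h. At 24 h it stood at 14.51, 14.47 and 14.64 against 14.94, 14.81 and 15.00. Srebf1 thus lay above control without overlap at both times, and its difference was largest at 6 h: 0.53 at 2 h (adjusted p = 0.00048, limma), 0.99 at 6 h and 0.37 at 24 h (SE 0.10, adjusted p = 0.0027). Srebf2, which leans towards sterol genes, was at 15.63, 15.69 and 15.14 in control and 15.55, 15.77 and 15.23 in Ikaros libraries at 2 h. At 24 h it was at 15.80, 15.77 and 15.79 against 16.53, 16.28 and 16.36. It overlapped at 2 h and was apart at 24 h, with a difference of 0.60 (SE 0.18, adjusted p = 0.00453).

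Both members of this group that stood lower did so at most times. Scap, the escort protein, was lower from 6 h on, by 0.41, then 0.33 at 12 h, 0.42 at 18 h and, at 24 h, by 0.42 (SE 0.10, adjusted p = 0.000484, limma). Stard4, a cytosolic sterol carrier, stood below control without overlap at 0 h too (-0.43, which did not pass), and was lower at every later time, with -0.68 at 2 h and -0.51 at 24 h (SE 0.15, adjusted p = 0.00448). Without the second replicates the 24 h calls of Srebf1 (0.39), Srebf2 (0.65) and Stard4 (-0.40) were lost.

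Of the fatty acid genes 2 of 6 were higher and 2 lower at 24 h with a median of 0.17, shares close to the 31.0% and 31.9% of all genes. Elovl6, an elongase of saturated and monounsaturated chains, was lower in Ikaros cells at every time. Before induction control libraries were at 13.62, 13.54 and 13.72 and Ikaros libraries at 12.89, 13.00 and 12.97. At 2 h they were at 13.66, 13.92 and 13.65 against 12.31, 12.40 and 12.16. After 24 h they were at 13.55, 13.94 and 13.84 against 10.53, 10.70 and 10.87. The Ikaros libraries were below control throughout, by 0.67 before induction (adjusted p = 0.000714, limma), 1.45 at 2 h (adjusted p = 4.3e-09) and 3.08 at 24 h (SE 0.13, adjusted p = 9e-17), the last being 8.45-fold.

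Acaca, the acetyl-CoA carboxylase that makes malonyl-CoA, fell away later. Its libraries overlapped at 2 h, at 14.22, 14.32 and 14.41 in control and 14.18, 14.31 and 14.34 in Ikaros cells. At 24 h control was at 14.37, 14.34 and 14.55 and Ikaros at 13.21, 13.18 and 13.20. The groups were then apart by -1.22 (SE 0.07, adjusted p = 8.11e-14, limma), after -0.23 at 6 h, -0.49 at 12 h and -0.95 at 18 h, all of which passed.

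Scd2, a desaturase that introduces the double bond of oleate, varied between batches and stood 0.88 above control at 0 h already, by 0.93, 1.01 and 0.72 in the 3 batches, which did not pass. At 2 h it was at 16.17, 16.74 and 15.35 in control and 17.18, 17.29 and 15.85 in Ikaros libraries, and the third replicate was the lowest in both lines. At 24 h it was at 16.39, 16.76 and 16.04 against 17.71, 17.19 and 17.54, apart from control by 1.08 (SE 0.38, adjusted p = 0.0144, limma). Without the first replicates this call was lost, at a difference of 0.96. Its relative Scd1 passed at no time and differed by 0.01 at 24 h.

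Acly, which makes cytosolic acetyl-CoA from citrate, was higher at 6 h (0.54) and 24 h (0.48, SE 0.17, adjusted p = 0.0196, limma), and the 24 h call was lost without the first replicates. Fasn, the fatty acid synthase, was higher by 0.69 at 6 h and stood at 0.32 at 24 h, which did not pass. Thus at 6 h Acly, Fasn and Scd2 were higher while Acaca and Elovl6 were lower.

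All 4 genes of efflux and LXR were higher in Ikaros cells at 12, 18 and 24 h, beside 23.0%, 29.0% and 31.0% of all genes. Their median difference was 2.88 at 24 h, where Abcg1 is counted but given without a test. Mylip, a ubiquitin ligase and LXR target, stood at 11.69, 12.02 and 11.49 in control and 12.27, 12.50 and 11.79 in Ikaros libraries at 2 h. At 24 h it was at 11.07, 11.24 and 11.16 against 14.81, 14.50 and 14.76. The groups overlapped at 2 h, where the difference of 0.45 did not pass but did with culture batch as a block and without the third replicates, and by 24 h Mylip was 3.53 higher (SE 0.18, adjusted p = 5.24e-15, limma), or 11.6-fold.

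Abcg1, an exporter of cholesterol to lipoproteins, began lower in Ikaros cells. At 0 h control libraries were at 12.61, 12.35 and 12.34 and Ikaros libraries at 12.03, 12.07 and 11.80, a difference of -0.46. At 2 h they overlapped at 12.18, 12.49 and 12.29 against 12.75, 12.59 and 12.19. At 24 h the order was the reverse of 0 h, with control at 11.73, 11.59 and 11.39 and Ikaros at 13.89, 13.71 and 13.80. Abcg1 was then 2.23 higher (SE 0.14), or 4.69-fold. Its 0 h and 24 h values are given without a test, because the control libraries of these times are those in which Abcg1 was picked. The counts of members at these times still include it. At 12 h, which the choice did not use, it was 2.23 higher (SE 0.14, adjusted p = 1.27e-12, limma), and at 18 h 2.43 higher (SE 0.14, adjusted p = 8.44e-14).

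Abca1, an exporter of cholesterol and phospholipid, had a course of its own. Before induction it was at 4.82, 3.96 and 5.04 in control and 9.68, 9.65 and 9.84 in Ikaros libraries, a difference of 5.12 (SE 0.48, adjusted p = 1.74e-08, limma). At 2 h the values were 5.19, 4.61 and 3.66 against 7.47, 7.68 and 8.20. At 6 h they overlapped, at 5.91, 4.46 and 6.07 against 6.22, 6.47 and 4.85. At 6 h Abca1 had dropped by 3.87 in Ikaros cells against their own 0 h (SE 0.48, adjusted p = 5.41e-07), with 2 of the 3 Ikaros libraries still above every control library of that time and the other among them. The control libraries lay between 3.66 and 6.07 over all times.

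From 12 h the Abca1 values in Ikaros cells were again apart, at 7.74, 7.03 and 7.86 against 4.50, 5.34 and 5.76 in control. At 24 h they were at 8.47, 8.61 and 8.84 against 4.27, 4.05 and 5.21, a difference of 4.13 (SE 0.48, adjusted p = 2.75e-08, limma). The mean of Abca1 lay at the 6.44th percentile of the gene means of the table, whose normalization corrects for gene length, and its standard error was the largest of the 34 members. Nr1h2, which encodes LXR beta, differed by little but with a small error: 0.28 at 6 h, 0.47 at 12 h and 0.39 at 24 h (SE 0.07, adjusted p = 2.12e-05).

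**Figure D3:**
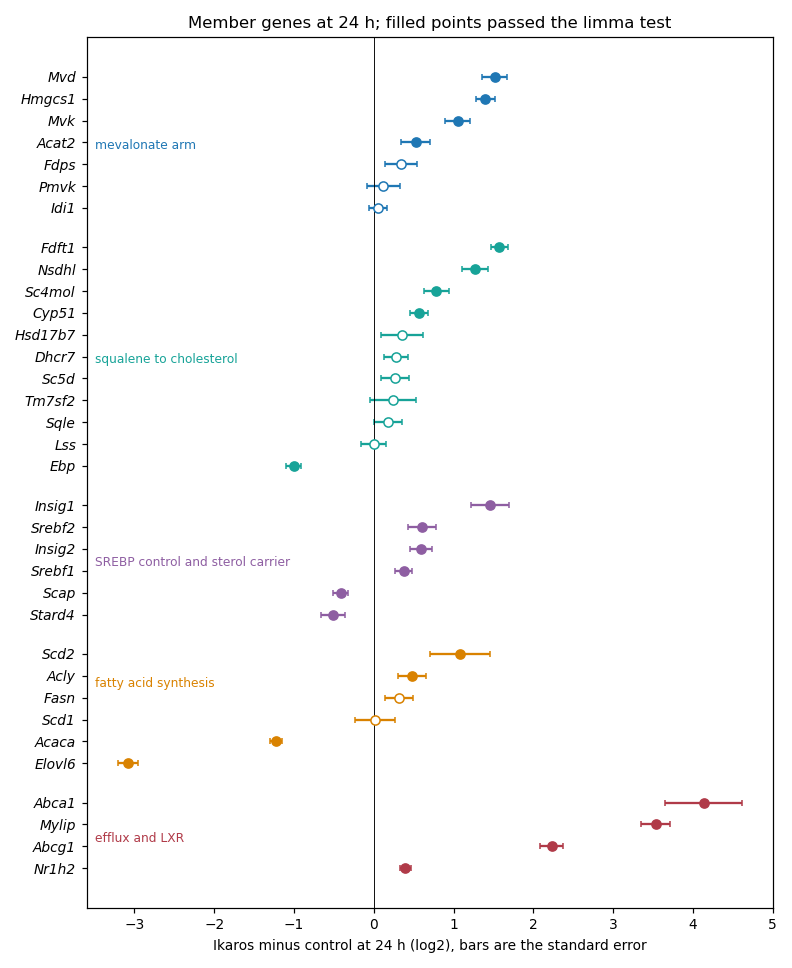
Log2 difference of Ikaros minus control at 24 h for the 34 members by role, with bars of 1 SE and filled points where limma's adjusted p was under 0.05. Sc4mol and Abcg1 are filled too, though their 24 h values are given without a test. Elovl6 lies lowest at -3.08 and Abca1 highest at 4.13, while most sterol enzymes lie between 0 and 1.57.

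Each line was also read against its own 0 h. Ikaros cells had 14 members higher and 2 lower at 2 h than at 0 h, beside 9.54% and 9.61% of all genes. At 6 h 17 were higher and 4 lower (17.1% and 15.6% of all genes), at 12 h 17 and 5 (24.0% and 22.2%), and at 18 h 18 and 4 (28.1% and 26.5%). At 24 h 24 members had risen and 3 had fallen, beside 31.0% and 29.6%. Without the second replicates the 2 h count was 3 in place of 16 and the 12 h count 12 in place of 22. The share of all genes called then fell too, from 19.2% to 5.05% at 2 h and from 46.1% to 28.2% at 12 h.

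Among the sterol enzymes 17 of 18 rose in Ikaros cells from 0 h to 24 h and 1, Ebp, fell, beside 31.0% and 29.6% of all genes. Their median was 0.88 and their range from -0.84 to 2.13. Mvd rose by 2.13, Fdft1 by 1.90, Nsdhl by 1.84, Mvk by 1.70 and Hmgcs1 by 1.66. In control cells, which received 4-OHT too, all 18 enzymes also stood above their own 0 h at 24 h, by 0.24 to 0.81 with a median of 0.63, which is a description with no test. For Lss the value was 0.75 in control and 0.54 in Ikaros cells, and for Sc5d 0.58 and 0.61. The 0 h cultures were collected on other occasions, so time in culture, 4-OHT and occasion cannot be told apart in either line.

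In control cells 0 of the 4 efflux and LXR genes stood above 0 h at 24 h, with a median of -0.30. Sc4mol and Abcg1 were picked in this very contrast, so nothing is read from how these genes and the sterol genes compare in it. In Ikaros cells Mylip rose by 2.71 (SE 0.18, adjusted p = 1.1e-12, limma), Abcg1 by 1.83 (SE 0.14, adjusted p = 1.54e-11) and Nr1h2 by 0.51, while Abca1 was at -1.08 (adjusted p = 0.0536). The fatty acid genes had a median of 0.02 in control and -0.13 in Ikaros cells, where Elovl6 fell by 2.25 and Acaca by 0.97 and the other 4 did not pass. Of the control genes of the pathway, Insig1 rose by 1.65, Srebf2 by 0.82, Insig2 by 0.37 and Srebf1 by 0.30 in Ikaros cells, and Scap (-0.17) and Stard4 (0.27) did not pass.

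**Figure D4:**
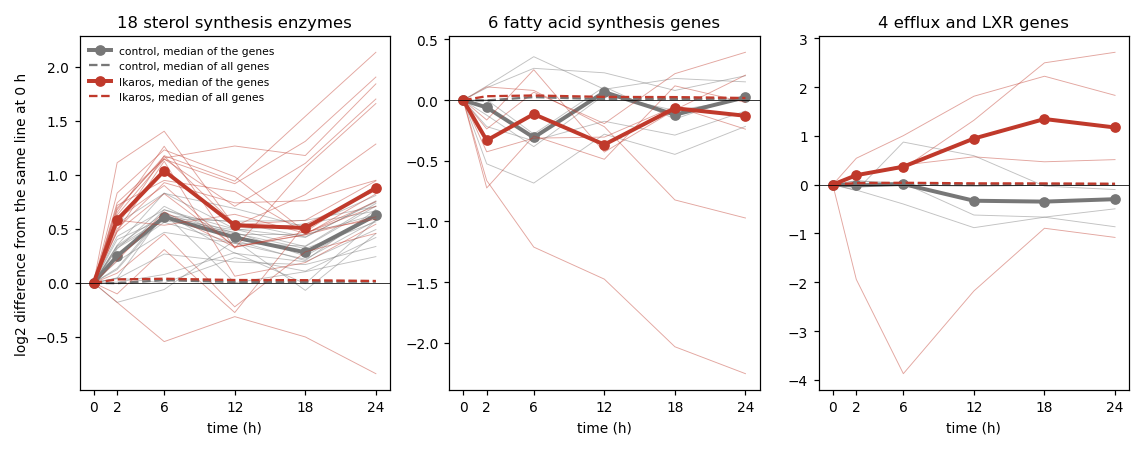
Log2 difference from the same line's 0 h over time in hours, for the sterol enzymes, fatty acid genes and efflux and LXR genes, in control and Ikaros cells. Thin lines are genes, the thick line is the group's median and the dashed line the median of all genes; the sterol median reaches 0.63 in control and 0.88 in Ikaros cells at 24 h, and Mylip and Abcg1 reach 2.71 and 1.83 in Ikaros cells.

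Whether the difference between the lines itself changed was tested in the same fit. From 0 h to 24 h it rose for 11 members and fell for 3, beside 24.2% and 24.2% of all genes, and from 2 h to 24 h it rose for 9 and fell for 4, beside 23.3% and 24.0%. These changes share the control libraries with the contrast on which the list was chosen. Abcg1, picked in that contrast, is counted among the 11 and the 9, and nothing is read from its part of these counts. Among the sterol enzymes the difference rose from 0 h to 24 h for Mvd, Fdft1, Nsdhl, Mvk and Hmgcs1, fell for Ebp, and did not pass for the other 12. Sc4mol was among those 12, with a change of 0.48 (SE 0.22). It was picked on the control libraries of 0 h and 24 h, so nothing is read from its not passing. The largest change was that of Mylip, 3.21 (SE 0.26, adjusted p = 1.11e-10), and the lowest that of Elovl6, -2.41 (SE 0.18, adjusted p = 3.18e-11).

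Other genes of the same pathways were read at 24 h. They were listed by pathway, but with earlier results of these data known. The genes named are those with the 3 largest rises and 3 largest falls at 24 h over these lists together. Of 12 further genes of sterol synthesis and SREBP processing, 6 were higher and 3 lower with a median of 0.24, beside 31.0% and 31.9% of all genes. Aacs, which activates acetoacetate for lipid synthesis, was higher by 0.96 (SE 0.14, adjusted p = 1.33e-06, limma), and Tmem97, a sterol-regulated membrane protein, was lower by 1.79 (SE 0.08, adjusted p = 1.84e-16).

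Of 14 further fatty acid enzymes in the table, 3 were higher and 6 lower with a median of -0.34, beside the same shares of all genes. Elovl5, an elongase of polyunsaturated chains, was higher by 1.09, and Fads2, the desaturase that works beside it, was lower by 1.44. Of 13 genes of sterol uptake, storage and efflux, 4 were higher and 3 lower with a median of -0.06, again beside 31.0% and 31.9%. Npc2, which hands cholesterol out of lysosomes, was higher by 1.08, and Apoe, an apolipoprotein and LXR target, was lower by 1.41, opposite to Abcg1 and Mylip.

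Some members share sequence with other genes. Per the study's methods the libraries kept the strand of the RNA, but the strand setting of the counting is not given in the sources used here. Exons of Fdft1 overlap those of Ctsb on the opposite strand over 774 bases (18.3% of its exons), and Ctsb was higher by 0.80 at 24 h. Tm7sf2 shares 532 bases with Vps51 on the same strand, and Fdps shares 1124 bases with Gm43738, which is not in the table. On opposite strands Scap shares 985 bases (13.2% of its exons) with 5830462I19Rik, which was at -1.05 at 24 h and did not pass, and Hmgcs1 shares 557 bases (12.1%) with Gm48342, which is not in the table. Cyp51 shares 166 bases with Akap9, higher by 0.49, and Srebf1 shares 109 bases with Rai1, lower by 0.73. Acat2 has a stretch of 445 bases at 98.7% identity with Tcp1, which was lower by 0.79 at 24 h, and a stretch of 1477 bases at 97.7% identity with Acat3. Scd2 and Scd1 match over 623 bases at 95.5% identity. Fdft1 also has a stretch of 1249 bases at 97.4% identity with the processed pseudogene Gm6781, which is not in the table. The values of these genes, and of Acaca, Elovl6 and Idi1, which have near-identical pseudogenes too, are uncertain to that extent.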

How the data were processed

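Messenger RNA of 36 B3 libraries was measured, in 12 groups of 3 taken from the labels. Per the study's methods, the authors trimmed reads, mapped them to mm10 with TopHat2 keeping unique best hits, counted them with HTSeq, normalized with cqn for GC content and length, and adjusted for library preparation with ComBat. The deposited values are on a log2 scale, as cqn makes them, although the file does not state the base. Its lowest value is 1. That adjustment may make standard errors too small. No counts were used, so the depth is unknown, and 3 libraries per group limit the precision.

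One limma 3.58.1 model (R 4.3.3) with 12 group means was fitted to all 12762 genes. Tests were two-sided, and calls were made at a Benjamini-Hochberg adjusted p under 0.05 across the whole table. The script was tested on simulated data. Replicates are separate culture batches, 1, 2 and 4 at 0 h and 1, 3 and 4 later, and batch numbers shared by both lines pair the libraries. Within pairs, the correlation of deviations from the group mean was -0.0620 to 0.507 (median 0.127), above 0.1 in 12 of 18 pairs. Alternatives were culture batch as a block, with or without separate 0 h blocks, a filter at the 25th percentile, quantile or median scaling, trend and robust eBayes, fits of only the compared groups, and leaving out each replicate.

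Members and lists were chosen with earlier results of these data known. Every member is named, and the 3 largest differences at 24 h in each role, with Insig1, Insig2, Srebf1, Srebf2, Sc4mol and Abcg1, are given in full. Over the other pathway lists together, the 3 largest rises and 3 largest falls at 24 h are named in the report. Some genes of these lists are not reported here. Overlaps and near copies (at least 95% identity over 300 bases) were read from GENCODE on GRCm38, and promoter windows from RefSeq on GRCm38.p6.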

Additional observations from a re-analysis of the deposited data

Results flagged for a closer look

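The difference between the Ikaros and control lines differed between times, by a test of the change itself in limma (adjusted p over all genes, two-sided), for the genes below. Abcg1 is listed too, but its changes are given without a test, because it was picked on control libraries of 0 h and 24 h. Each value is the log2 difference of Ikaros minus control at 24 h less that at the earlier time, with 3 libraries in each of the 4 groups.

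From 0 h to 24 h the sterol enzymes changed by 1.37 (adjusted p = 8.05e-06) for Mvd, 1.19 (adjusted p = 1.54e-07) for Fdft1, 1.16 (adjusted p = 0.000111) for Nsdhl, 1.14 (adjusted p = 0.000137) for Mvk, 1.04 (adjusted p = 1.81e-05) for Hmgcs1 and -1.18 (adjusted p = 4.01e-08) for Ebp. The SREBP control genes changed by 1.11 (adjusted p = 0.00776) for Insig1, 0.73 (adjusted p = 0.00291) for Insig2 and 0.64 (adjusted p = 0.0356) for Srebf2. Among fatty acid genes the change was -1.17 (adjusted p = 5.2e-10) for Acaca and -2.41 (adjusted p = 3.18e-11) for Elovl6. Among efflux and LXR genes it was 0.53 (adjusted p = 7.6e-05) for Nr1h2 and 3.21 (adjusted p = 1.11e-10) for Mylip. For Abcg1 it was 2.69, given without a test.

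Between 2 h and 24 h the sterol enzymes changed by 1.20 (adjusted p = 5.86e-05) for Mvd, 0.81 (adjusted p = 5.37e-05) for Fdft1, 0.79 (adjusted p = 0.00544) for Nsdhl, 0.83 (adjusted p = 0.00356) for Mvk, 0.71 (adjusted p = 0.00149) for Hmgcs1, -0.96 (adjusted p = 1.33e-06) for Ebp and -0.56 (adjusted p = 0.0419) for Lss. Insig1 changed by 1.43 (adjusted p = 0.00102), Acaca by -1.18 (adjusted p = 6.17e-10) and Elovl6 by -1.63 (adjusted p = 4.4e-08). The efflux and LXR genes changed by 0.43 (adjusted p = 0.000825) for Nr1h2 and 3.08 (adjusted p = 3.35e-10) for Mylip. Abcg1 changed by 2.04, given without a test. Both changes share the 24 h libraries, and the change from 0 h shares control libraries with the contrast on which the list was chosen. Lss alone was called from 2 h and not from 0 h, and Insig2 and Srebf2 were called from 0 h and not from 2 h; the difference between these calls was not tested.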

How the results depend on the processing

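Depth is unknown, and 3 libraries a group limit every call. Fits of only the groups compared called 2 members in place of 4 at 0 h, 4 in place of 14 at 2 h, 12 in place of 26 at 6 h, and 5 in place of 16 for Ikaros at 2 h against its own 0 h. In these fits the share of all genes called fell from 19.1% to 6.74% at 2 h and from 37.3% to 16.8% at 6 h. It fell from 19.2% to 5.94% for Ikaros at 2 h against its own 0 h, but at 0 h it rose from 8.33% to 9.49%. With culture batch as a replicate block kept separate for 0 h, 8 members were called at 0 h, and at 24 h 25 in place of 23, while the block moved no other count of members by over 1.5 times. The share of all genes called in that fit was 11.7% in place of 8.33% at 0 h and 66.6% in place of 62.9% at 24 h. Without each replicate in turn the counts ran from 2 to 5 at 0 h, 5 to 16 at 2 h, 15 to 29 at 6 h, 11 to 20 at 12 h, 3 to 13 for Ikaros at 2 h against its own 0 h and 12 to 18 for Ikaros at 12 h against its own 0 h. The lowest of these, apart from 0 h, where it came without the first or the second replicates, came without the second replicates, and the shares of all genes called fell as well, from 37.3% to 21.2% at 6 h and from 45.8% to 29.5% at 12 h. For Ikaros against its own 0 h these shares fell from 19.2% to 5.05% at 2 h and from 46.1% to 28.2% at 12 h. At 0 h the share was 3.39% without the first and 2.49% without the second replicates, in place of 8.33%. At 24 h the count stayed between 19 and 26. The share of all genes called at 24 h fell from 62.9% to 51.5% without the first and to 49.0% without the second replicates. Without the third it was 63.1%. The 24 h calls of Acly and Scd2 were lost without the first replicates (0.46 and 0.96). Those of Srebf1, Srebf2 and Stard4 were lost without the second (0.39, 0.65 and -0.40). That of Acat2 was lost without the first (0.42) and also without the second (0.61).

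Differences that changed sign had not passed the test. At 2 h Fasn was 0.0152 after quantile normalization, and without a replicate the values ran from -0.0424 to 0.0836 for Hsd17b7, from -0.10 to 0.0483 for Ebp, from -0.12 to 0.11 for Insig1, from -0.0014 to 0.0865 for Srebf2, from -0.0487 to 0.0339 for Fasn, from -0.18 to 0.0300 for Scd1 and from -0.0030 to 0.34 for Abcg1. At 24 h they ran from -0.0870 to 0.14 for Lss, from -0.0158 to 0.51 for Tm7sf2 and from -0.0795 to 0.13 for Scd1.

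Of the single-gene differences under the alternatives, 295 at 2 h and 323 at 24 h kept their direction and call, 26 and 7 lost the call, 9 and 5 gained it, and 9 and 4 changed sign. The cause was not tested.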

Other observations

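At 24 h, beside the genes named in the report, Lbr, a sterol reductase of the nuclear envelope, was higher by 0.46 (SE 0.14). Mbtps2, the protease that releases SREBPs, was lower by 0.89 (SE 0.21), and Erlin1, which takes part in SREBP retention, by 0.70 (SE 0.10). Among the fatty acid enzymes the elongation enzyme Hsd17b12 was lower by 1.29 (SE 0.09), Acsl5, an acyl-CoA synthetase, by 1.20 (SE 0.16), and Elovl1 by 0.86 (SE 0.11), while Lpin1, a phosphatidate phosphatase, was higher by 0.94 (SE 0.15). Among the genes of uptake and efflux, Rxra, a partner receptor of LXRs, was lower by 1.39 (SE 0.21), Npc1 was higher by 0.68 (SE 0.16) and Abca7 by 0.78 (SE 0.13). All of these passed limma's test over all genes. These genes were singled out after their values were seen.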
